A study of Rattus norvegicus with 20 samples.

Results

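Mast cell genes were followed in rat vocal folds from the uninjured state to 8 weeks after injury. The 10 genes were chosen by name: Cpa3, Cma1, Mcpt1, Tpsab1, Tpsb2, Kit, Ms4a2, Fcer1a, Hdc and Gata2. Each was measured by 1 probe set, and these 10 probe sets were taken from 15049 probe sets that carried 1 gene name. Vocal folds of 20 male Sprague-Dawley rats were profiled on Affymetrix rat Clariom arrays, with 1 array per animal and 5 animals per group. The groups were uninjured controls and animals killed 1, 4 or 8 weeks after injury. The methods give an age of 14 to 16 weeks at injury, and no age of the controls at death. Age at death thus rose with the time after injury, and the 2 cannot be told apart. The injury stripped the lamina propria from the thyroarytenoid muscle, and it was made on 1 or both sides according to the methods, which do not give the side for single animals. All animals of the study were anesthetized with pentobarbital sodium and killed with chloral hydrate, and both folds were dissected whole. Values are log2 RMA signals, in which an increase of 1 means a doubling.

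Mast cells are tissue-resident immune cells that store proteases, histamine and heparin in granules. They mature in the tissue under stem cell factor, the ligand of the receptor Kit, and they release their granules when antigen crosslinks IgE on the high-affinity IgE receptor. In wounds their chymases and tryptases can act on matrix proteins and peptide mediators, and in the larynx they lie in the lamina propria and around glands and vessels.

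Cma1, the alpha-chymase of mast cell granules, had a higher signal after injury, by 2.57-fold at 1 week and 1.64-fold at 4 weeks. It was the 1 gene of the 10 that passed the test in any comparison with control. Of all named probe sets, 21.3%, 13% and 11.6% passed at 1, 4 and 8 weeks. The signal of Cma1 was low, and background probe sets were also brighter on the injured arrays. With the signal of hybridization controls as a covariate, neither difference of Cma1 passed, beside 0.691% and 0.173% of all probe sets that passed at 1 and 4 weeks. That signal did not overlap between controls and injured animals. The log2 fold changes of Cma1 were 1.59 and 0.93 with the covariate, against 1.36 and 0.71 without it. The 4-week difference also failed in 5 of 10 fits that left out 1 array. Mcpt1, another granule chymase, was 2.05-fold higher at 1 week but did not pass the test. The carboxypeptidase Cpa3, the receptor genes and both tryptases did not pass at any time. Cpa3, Mcpt1, Ms4a2 and Fcer1a differed widely between animals of the same group. With deviations from the group means pooled over the 4 groups, these genes were high or low in the same animals, but for most of them the relation to Cpa3 was weak among the 8-week animals.

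**Figure D1:**
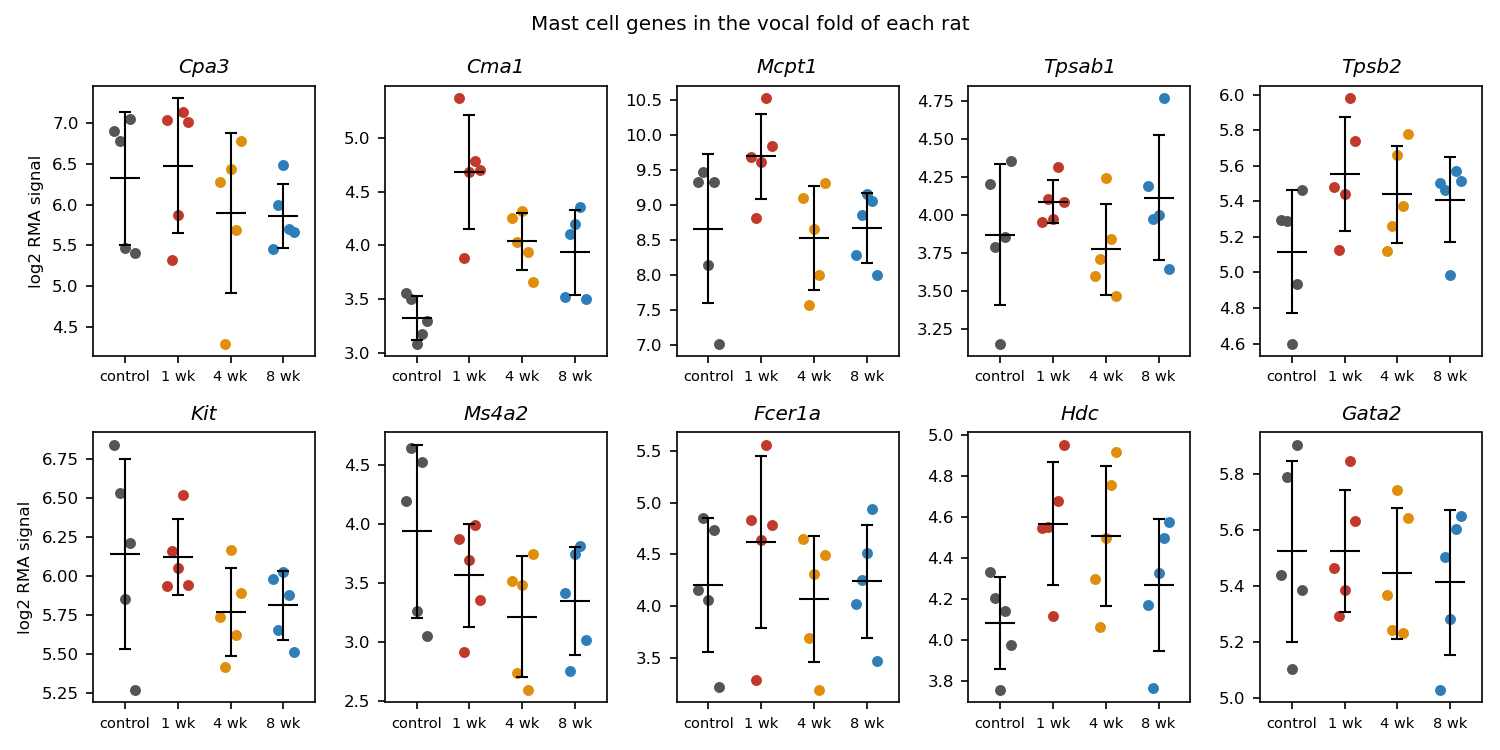
Log2 RMA signal of the 10 mast cell genes (y axis, a separate scale for each gene) in each of 5 rats per group (x axis). Points are animals in the order of their replicate number, the horizontal line is the group mean and the bars are 1 SD; for Cma1 all 5 points at 1 week and all 5 at 4 weeks lie above all control points.

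Cma1 had a log2 signal of 3.56, 3.50, 3.09, 3.17 and 3.30 in control replicates 1 to 5. One week after injury it was 5.37, 3.88, 4.69, 4.78 and 4.71. At 4 weeks it was 4.25, 4.03, 4.32, 3.94 and 3.66. All 10 of these injured animals lay above the highest control, with replicate 2 lowest at 1 week and replicate 5 lowest at 4 weeks. At 8 weeks the values were 3.52, 4.10, 4.20, 4.36 and 3.50, and replicates 1 and 5 fell within the control range.

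The mean of Cma1 was 3.32 ± 0.20 in controls (SD, n = 5), 4.69 ± 0.53 at 1 week, 4.04 ± 0.26 at 4 weeks and 3.94 ± 0.40 at 8 weeks. The log2 fold change at 1 week was 1.36 (SE 0.22, 95% interval 0.91 to 1.81), with an adjusted p of 0.000225 by limma. At 4 weeks it was 0.71 (SE 0.22, interval 0.26 to 1.17, adjusted p = 0.0344 by limma). The difference at 8 weeks was 0.61, with an adjusted p of 0.0719, so that it did not pass. Levels thus ran from 1 week through 4 and 8 weeks to control. The step from 1 to 4 weeks, -0.65 (interval -1.10 to -0.19), had an adjusted p of 0.338 by limma, and the step from 4 to 8 weeks was -0.10 (interval -0.56 to 0.35), so neighbouring injured groups in this order were not separated by the test. The call at 1 week held without each single array (1.19 to 1.56). The call at 4 weeks was lost in 5 of 10 such fits, without control replicates 3 or 4 or 4-week replicates 1, 2 or 3 (0.65 to 0.81 over the 10 fits).

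The share of all named probe sets that passed the same test was 21.3% at 1 week, 13% at 4 weeks and 11.6% at 8 weeks. Of the mast cell genes, 1 of 10 passed at 1 week, 1 of 10 at 4 weeks and 0 of 10 at 8 weeks. The difference between these shares was not tested. Probe sets higher in all 5 injured animals than in all 5 controls made up 8.21% at 1 week and 6.04% at 4 weeks, and Cma1 was the only member in that position. At 8 weeks 0 of 10 members stood so, beside 5.93%. At an unadjusted p under 0.05, 4, 3 and 1 of 10 members passed at 1, 4 and 8 weeks, beside 35%, 28.8% and 26.7% of all probe sets. In the moderated F test over the 4 groups, 1 of 10 genes passed, again Cma1 with an adjusted p of 0.0018, against 15.4% of all probe sets.

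The signal of Cma1 was low. It lay above the mean of the 23 background probe sets of its array on every array, but never above the brightest of them. That background mean was itself 2.70 in controls and 3.39, 3.30 and 3.26 at 1, 4 and 8 weeks. Measured from the background mean, Cma1 stood at 0.62 ± 0.23 in controls (SD, n = 5), 1.30 ± 0.62 at 1 week, 0.74 ± 0.31 at 4 weeks and 0.67 ± 0.44 at 8 weeks. After subtraction of the background mean from every probe set, Cma1 was still 0.67 higher at 1 week (adjusted p = 0.0181 by limma), and the difference at 4 weeks was 0.12 (adjusted p = 0.669). This step lowers all probe sets of an array alike, so that the median over all of them moved to -0.66 at 1 week and -0.55 at 4 weeks.

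**Figure D2:**
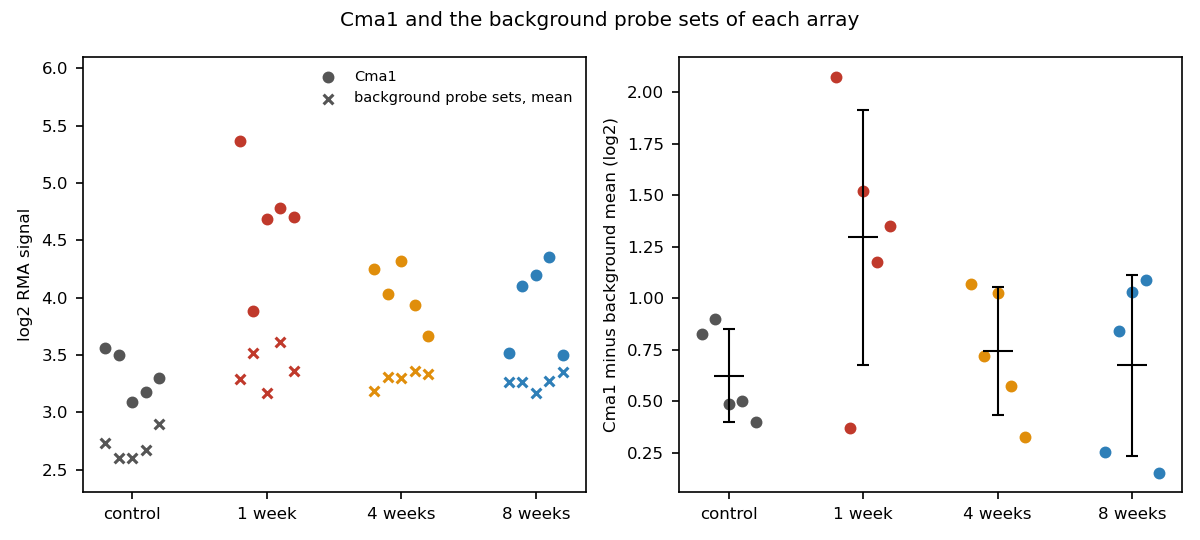
Left, log2 RMA signal of Cma1 (dots) and the mean of the background probe sets (crosses) on each array by group; right, their difference in log2 units, with the group mean and 1 SD. The background mean is 2.70 in controls and 3.26 to 3.39 after injury, and Cma1 lies 1.30 above it at 1 week against 0.62 in controls.

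The 9 hybridization control probe sets, which read transcripts added at the array step, also separated controls from injured animals. Their mean was 9.47 ± 0.29 in controls (SD, n = 5) and 10.38 ± 0.16, 10.30 ± 0.14 and 10.26 ± 0.17 at 1, 4 and 8 weeks. No injured array overlapped a control array in this value, so the array step and the injury cannot be told apart. With this value as a covariate, Cma1 was 1.59 higher at 1 week and 0.93 higher at 4 weeks, with adjusted p of 0.0905 and 0.299 by limma. Of all probe sets, 0.691%, 0.173% and 0.146% passed with it at 1, 4 and 8 weeks.

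Markers of some cell types moved with the groups as well. Beside them, 21.3%, 13% and 11.6% of all named probe sets passed at 1, 4 and 8 weeks. The 6 fibroblast markers had a mean signal of 8.90 to 9.74 in controls and 10.10 to 10.49 at 1 week, with 4 of 6 passing as higher at 1 week, 3 at 4 weeks and 1 at 8 weeks. Of 5 eosinophil markers, 2 passed as higher at 1 week, among them Prg2, the major basic protein of eosinophil granules, which was 0.91 higher. Prg2 also passed at 4 and 8 weeks (0.70 and 0.50 higher). Measured from the background mean, Prg2 stood at 1.29 in controls and 1.51, 1.40 and 1.23 at 1, 4 and 8 weeks. The other, Prg3, was 0.48 higher at 1 week but lay below the background mean on 11 of 20 arrays. The 7 anterior pituitary markers had a mean of 5.06 to 6.75 in controls and 3.53 to 4.40 in the injured groups, and 3 of the 7 passed as lower at each time. At 1, 4 and 8 weeks the difference from control was -7.55, -8.06 and -7.95 for Prl and -2.89, -2.90 and -2.91 for Gh1. For Cga it was -1.13, -1.45 and -1.26. The 7 gland and airway secretory markers had means of 7.75 to 9.78 in controls and 6.36 to 8.61 in the injured groups, with 2, 3 and 3 passing as lower at 1, 4 and 8 weeks. The 7 macrophage markers had means of 5.24 to 6.38 in controls and 5.90 to 7.37 after injury, with 1, 2 and 1 passing as higher, and both measured B and plasma cell markers passed as higher at 8 weeks. None of the 3 measured basophil and 3 measured melanocyte markers passed at any time. The same held for the 4 neutrophil, 7 T and NK cell and 5 squamous epithelium markers measured. Of 7 endothelial markers, Kdr passed as lower at each time (-0.74, -0.54 and -0.62), and Esam passed as higher at 4 weeks (0.51). Of 7 skeletal muscle markers, Actn3 passed as lower at 8 weeks (-1.38). Coro1a, of 4 leukocyte markers, passed as higher at 4 and 8 weeks (1.30 and 1.38). The part of these cells in the Cma1 difference was not tested, and in whole tissue a change in the number of mast cells and a change in RNA per cell cannot be told apart.

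Mcpt1, the chymase characteristic of connective tissue mast cells in the rat, had a signal of 9.33, 9.48, 8.14, 9.33 and 7.02 in the controls. At 1 week it was 9.68, 8.82, 9.61, 10.52 and 9.84. Here 4 of 5 injured animals lay above the highest control, and replicate 2 lay among the controls. The fold change was 1.04 on the log2 scale (SE 0.42, interval 0.17 to 1.90), with an unadjusted p of 0.0208 and an adjusted p of 0.0788 by limma. It was 0.63 without control replicate 5, the animal with the lowest Mcpt1 of all 20. At 4 weeks the values were 9.10, 7.57, 8.66, 7.99 and 9.32, and at 8 weeks 8.29, 8.86, 9.16, 9.06 and 7.99, and both groups lay within the control range. The means at 4 and 8 weeks differed from control by -0.13 (interval -0.99 to 0.73) and 0.01 (interval -0.85 to 0.88), and the sign of both turned when single arrays were left out. Mcpt1 exceeded the brightest background probe set on all 5 arrays of each group.

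Cpa3, the carboxypeptidase A of mast cell granules, had a signal of 6.89, 6.78, 5.47, 7.04 and 5.40 in the controls. At 1 week it was 7.04, 5.33, 5.87, 7.14 and 7.003. The values at 4 weeks were 6.28, 4.30, 6.43, 5.69 and 6.77. Controls fell into 3 high and 2 low animals, and the injured groups covered nearly the same range, apart from 4-week replicate 2, which was lowest. At 8 weeks Cpa3 was 5.46, 5.999, 6.48, 5.70 and 5.67, a narrower range. Its differences from control were 0.16 (interval -0.73 to 1.04), -0.42 (-1.31 to 0.46) and -0.46 (-1.34 to 0.43) at 1, 4 and 8 weeks, and the first turned to -0.16 when arrays were weighted by their quality.

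Gata2, a member of the list, is a transcription factor that binds GATA motifs and is needed for mast cell development, and the promoters of the members were searched for such motifs. The 250 bases before the start were read from RefSeq on the GRCr8 build for 9 of the 10 genes, Gata2 included and Ms4a2 not. For Cpa3, Fcer1a, Kit and Gata2 the start used lay inside the annotated span of the gene, so these bases overlap it. The motif AGATAA was searched together with its variants TGATAA and also AGATAG as well as TGATAG, on both strands. They were found in 4 of the 9 promoters (44.4%) and in 9042 of 33469 promoters of all genes in that table (27.0%), so such matches are common. The 4 sequences with a match are given here in the direction of the gene, with the motif in capitals. They lie at chr2:104673238-104673487 (minus strand), chr15:33390134-33390383 (minus), chr15:33841356-33841605 (plus) and chr13:88224680-88224929 (minus).
Cpa3: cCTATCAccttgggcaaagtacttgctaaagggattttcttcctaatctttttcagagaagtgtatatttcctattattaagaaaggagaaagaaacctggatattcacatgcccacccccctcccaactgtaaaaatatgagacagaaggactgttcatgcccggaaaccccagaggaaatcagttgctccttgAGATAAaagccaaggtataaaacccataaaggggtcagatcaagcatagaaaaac
Cma1: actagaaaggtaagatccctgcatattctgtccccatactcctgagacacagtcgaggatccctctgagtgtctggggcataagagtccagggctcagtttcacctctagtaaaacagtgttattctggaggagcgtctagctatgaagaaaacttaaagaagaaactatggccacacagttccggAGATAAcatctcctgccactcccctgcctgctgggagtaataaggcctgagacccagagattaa
Mcpt1: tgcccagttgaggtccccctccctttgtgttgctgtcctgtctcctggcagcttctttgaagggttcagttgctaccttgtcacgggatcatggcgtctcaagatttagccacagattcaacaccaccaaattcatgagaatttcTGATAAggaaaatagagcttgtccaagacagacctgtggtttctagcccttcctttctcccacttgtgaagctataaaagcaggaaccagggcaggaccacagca
Fcer1a: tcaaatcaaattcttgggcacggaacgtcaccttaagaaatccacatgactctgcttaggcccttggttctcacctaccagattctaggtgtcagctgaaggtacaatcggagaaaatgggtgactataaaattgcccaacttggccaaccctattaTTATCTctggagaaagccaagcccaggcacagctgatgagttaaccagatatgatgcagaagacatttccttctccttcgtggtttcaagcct
The match in Cma1 begins 64 bases before the start, in Mcpt1 105 bases and in Fcer1a, on the other strand, 93 bases. Cpa3 has a match at 55 bases and another, TGATAG on the other strand, at 249 bases. Cma1, whose signal passed the test, and Cpa3, Mcpt1 and Fcer1a, whose signals did not, all hold the motif.

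The tryptases Tpsab1 and Tpsb2, trypsin-like proteases stored with heparin, lie 19007 bases apart on chromosome 10. Tpsb2 was 5.29, 5.29, 4.60, 4.94 and 5.47 in the controls and 5.48, 5.13, 5.44, 5.98 and 5.74 at 1 week. The groups overlapped, with 3 of 5 animals at 1 week above the highest control. The difference was 0.44 (SE 0.18, interval 0.06 to 0.82, adjusted p = 0.0932 by limma), and it was -0.25 with the hybridization value as a covariate. Tpsab1 ranged from 3.16 to 4.35 in controls with a median of 3.86, and its group means lay between 3.77 at 4 weeks and 4.11 at 8 weeks. Its differences from control were 0.22, -0.10 and 0.24, all with intervals that include 0.

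Fcer1a and Ms4a2 encode the alpha and beta chains of the IgE receptor. Ms4a2 was 4.19, 4.64, 3.26, 4.52 and 3.05 in the controls, 3.87, 2.92, 3.69, 3.99 and 3.35 at 1 week, and 3.52, 2.74, 3.49, 2.60 and 3.75 at 4 weeks. In all, 3 controls were higher than every 4-week animal, and the other 2 were not. The difference at 4 weeks was -0.72 (SE 0.31, interval -1.35 to -0.08, unadjusted p = 0.0286, adjusted p = 0.124 by limma), and those at 1 and 8 weeks were -0.37 and -0.58. With array weights the 3 differences were -0.71, -0.97 and -0.96 and all passed, with adjusted p of 0.0435, 0.0162 and 0.0143 by limma. Ms4a2 was dim, since its mean lay 1.23 above the background mean in controls and between -0.08 and 0.17 of it in the injured groups. Fcer1a was 4.16, 4.85, 4.06, 4.74 and 3.22 in the controls and 4.83, 3.28, 4.64, 5.56 and 4.78 at 1 week. The groups overlapped, and replicate 4 was the only animal at 1 week above every control. The difference was 0.41 (interval -0.35 to 1.18).

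Kit, the stem cell factor receptor on mast cells and their precursors, was 6.84, 6.53, 5.85, 6.21 and 5.27 in the controls. Its group medians were 6.05 at 1 week, 5.74 at 4 weeks and 5.88 at 8 weeks, against 6.21 in controls. The differences from control were -0.02, -0.37 and -0.33, and each interval included 0. Without control replicate 5, its lowest control, the 4-week difference was -0.59 and passed (adjusted p = 0.0417 by limma). Gata2 had means of 5.52, 5.52, 5.44 and 5.41 from control to 8 weeks, the narrowest span of the 10 genes. Its difference at 1 week was 0.00 (interval -0.35 to 0.35).

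Hdc, the histidine decarboxylase that makes histamine, was 4.33, 4.21, 3.76, 4.14 and 3.98 in the controls and 4.55, 4.55, 4.12, 4.68 and 4.95 at 1 week. Of the 5 injured animals 4 lay above the highest control. The difference was 0.49 (SE 0.18, interval 0.10 to 0.87, adjusted p = 0.0637 by limma), and it turned to -0.06 with the hybridization value as a covariate. At 4 weeks it was 0.42 (unadjusted p = 0.0315, adjusted p = 0.131 by limma), and at 8 weeks 0.18.

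**Figure D3:**
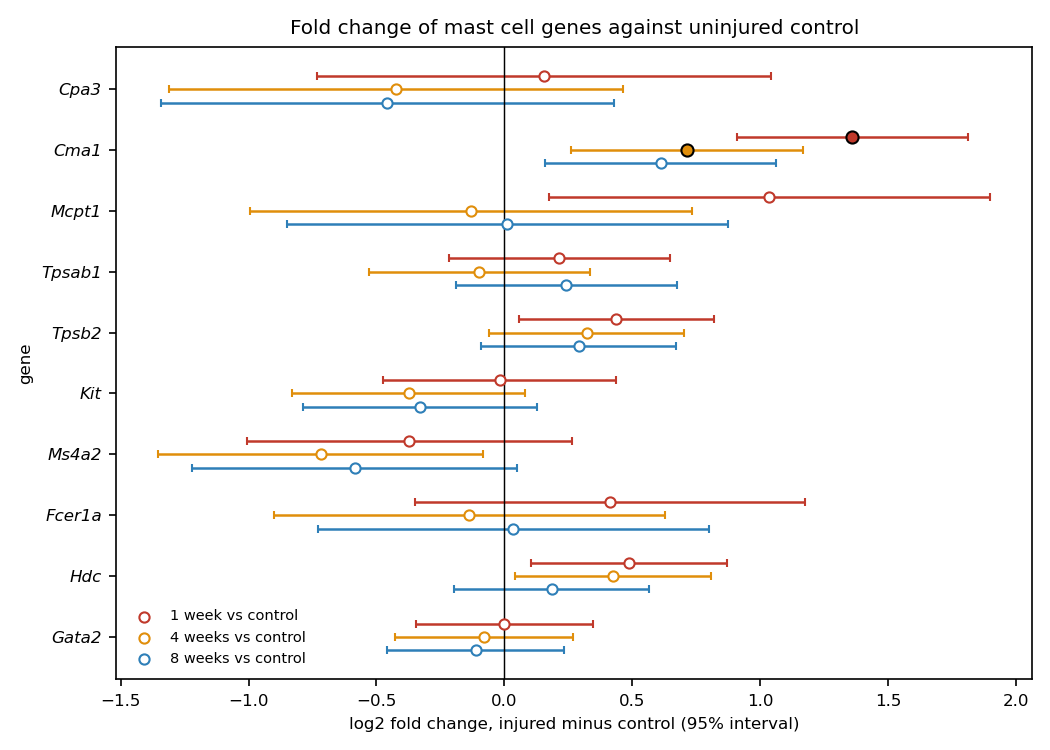
Log2 fold change of each mast cell gene (y axis) against uninjured control (x axis, log2 units) at 1, 4 and 8 weeks, with 95% intervals from limma. Filled points passed the adjusted p threshold of 0.05, which only Cma1 did, at 1 week (1.36) and 4 weeks (0.71).

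The median log2 fold change of the 10 genes was 0.31 at 1 week, -0.11 at 4 weeks and 0.02 at 8 weeks, beside 0.02, 0.04 and 0.04 over all named probe sets. Of the 10, 8 were above 0 at 1 week and 3 at 4 weeks. Between 1 and 4 weeks all 10 differences were negative with a median of -0.35, and none passed the test, as for nearly all probe sets, of which 0.126% passed. The comparisons of 4 and of 8 weeks with 1 week share the same 5 animals at 1 week. From 1 to 8 weeks the median was -0.31 and 0 of 10 passed, beside 0.233% of all probe sets, and from 4 to 8 weeks it was 0.01 with 0 of 10, beside 0%. At an unadjusted p under 0.05 the counts of members were 2, 2 and 0, beside 9.08%, 9.97% and 2.51% of all probe sets, and the 2 genes were Cma1 and Mcpt1 in both comparisons.

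The spread between animals of a group was wide for part of the list. The pooled SD within groups was 0.78 for Cpa3 and 0.76 for Mcpt1, larger than in 98.4% and 98.2% of all named probe sets. It was 0.67 for Fcer1a (97%) and 0.55 for Ms4a2 (94.5%). Gata2, in contrast, had 0.26 (44.4%), close to the middle of the array.

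This spread ran together between genes. In the controls replicate 5 was lowest for Cpa3, Mcpt1, Kit, Ms4a2 and Fcer1a, and replicate 3, an array of low median signal, was lowest for the other 5 genes. At 1 week replicate 2 was lowest for 7 of the 10 genes and replicate 4 highest for 8. Over the 20 arrays, after the group mean had been removed, Pearson's r was 0.85 between Cpa3 and Mcpt1, 0.87 between Mcpt1 and Fcer1a, 0.86 between Mcpt1 and Ms4a2 and 0.83 between Ms4a2 and Fcer1a. These are descriptions over 20 arrays that share tissue composition and array quality within each animal. Among Cpa3, Mcpt1, Kit, Ms4a2 and Fcer1a, grouped after their values were seen, the 10 pairs had r from 0.53 to 0.87 with a median of 0.75.

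**Figure D4:**
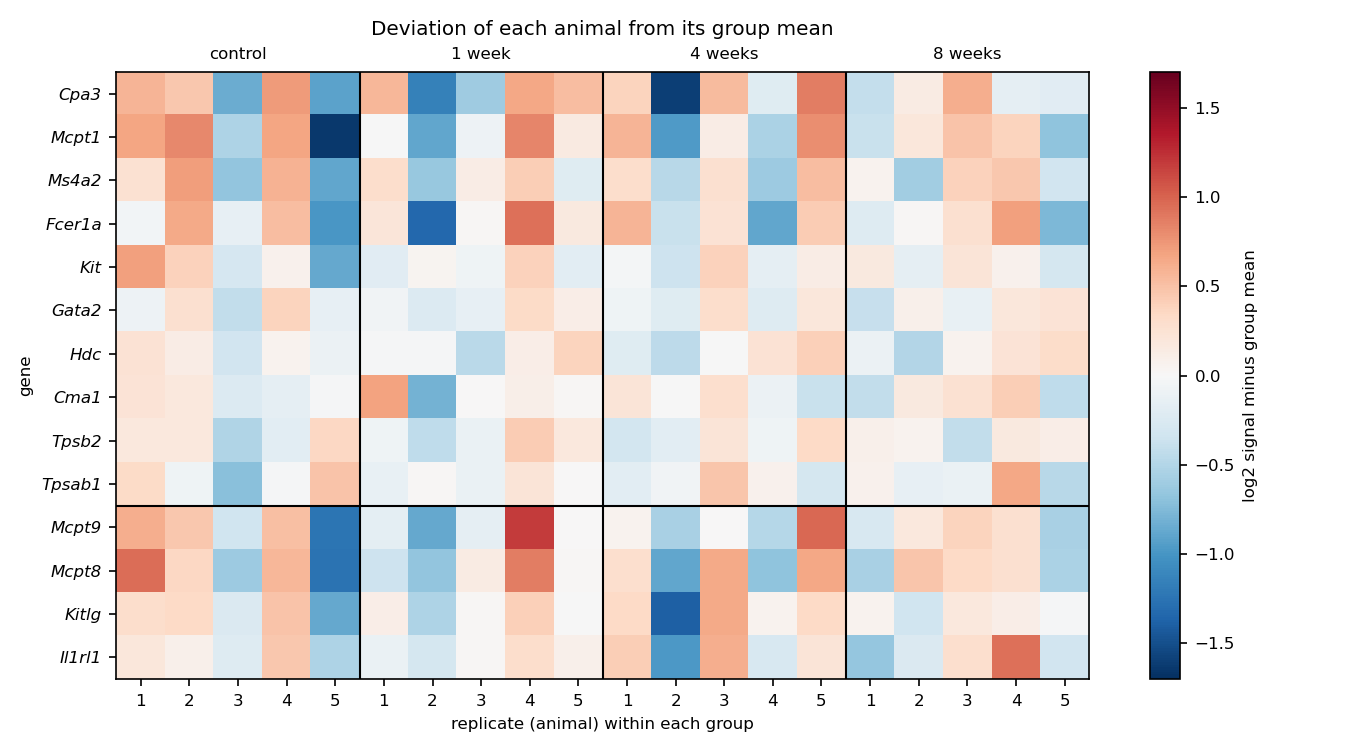
Deviation of each rat from its group mean (colour, log2 units) for the 10 mast cell genes and, under the line, Mcpt9, Mcpt8, Kitlg and Il1rl1 (rows), with the 5 animals of each group as columns. Control replicate 5 and 1-week replicate 2 are low, and 1-week replicate 4 is high, over most of the upper rows.

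Relative to Cpa3, r over the 20 arrays was 0.73 for Ms4a2, 0.70 for Fcer1a, 0.64 for Gata2, 0.58 for Kit, 0.54 for Hdc, 0.44 for Cma1, 0.35 for Tpsb2 and 0.07 for Tpsab1. Within groups, Gata2 stood nearer to Cpa3 than Kit did only at 1 week (0.81 against 0.07). Kit stood nearer in controls (0.85 against 0.79), at 4 weeks (0.82 against 0.74) and at 8 weeks (0.27 against 0.03). The difference between Gata2 and Kit was not tested. Within single groups of 5 animals, r between Cpa3 and Mcpt1 was 0.93, 0.83, 0.91 and 0.69 from control to 8 weeks. At 8 weeks it was 0.18 for Ms4a2, 0.35 for Fcer1a and 0.27 for Kit, and for Kit at 1 week 0.07. The tryptases had r of 0.02 to 0.35 with the 5 genes above, and 0.51 with each other. Cma1, the gene that passed the test, had r between -0.07 (Hdc) and 0.58 (Fcer1a) with the other members. Without the 2 arrays of lowest median signal, control replicate 3 and 4-week replicate 2, r between Cpa3 and Mcpt1 was 0.84, the highest of 15048 probe sets set against Cpa3.

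Over all arrays, Mcpt1 ranked 7 among the 15048 probe sets in likeness to Cpa3, Ms4a2 68 and Fcer1a 111. The 5 most like Cpa3 among brighter probe sets were Pygb (0.89), a glycogen phosphorylase, Dpyd (0.86), a pyrimidine-degrading enzyme, Cracr2b (0.86), a regulator of calcium entry, Pyroxd2 (0.86) and Kitlg (0.85). Kitlg is stem cell factor, the ligand of Kit. Its signal at 4 weeks was 0.86 below control (SE 0.30, adjusted p = 0.0588 by limma), so it did not pass. The genes most like Mcpt1 were Mcpt9 (0.94) and Mcpt8 (0.93), granule proteases of a related family, followed at rank 4 by Fcer1a, at rank 7 by Ms4a2 and at rank 9 by Cpa3. Mcpt8, which marks basophils in the mouse, and Il1rl1, the IL-33 receptor of mast cells at rank 65 (0.75), were named after their values were seen. The other measured basophil markers did not follow Mcpt1 (Prss34 -0.44, Il3ra 0.22). The mean of the 5 measured squamous epithelium markers had r of 0.64 with Mcpt1 and 0.55 with Cpa3. Cma1, Mcpt1, Mcpt8 and Mcpt9 lie on chromosome 15, and whether probes of such related genes read each other's transcripts was not tested.

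**Figure D5:**
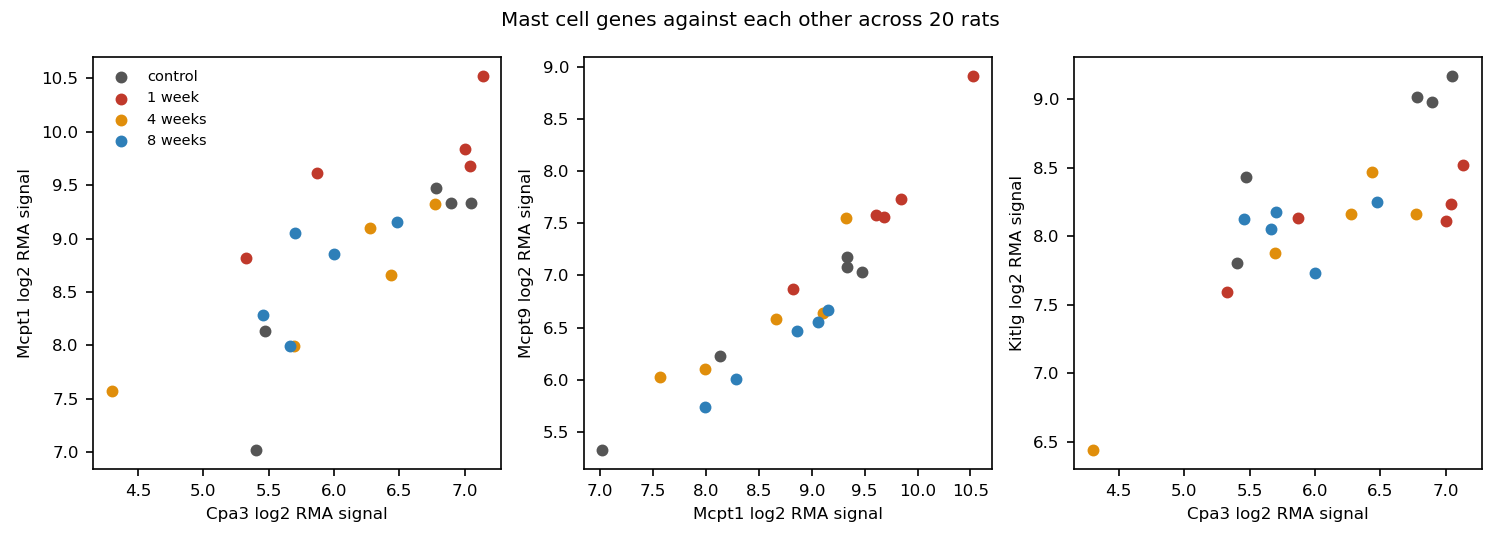
Log2 RMA signal of Mcpt1 against Cpa3 (left), Mcpt9 against Mcpt1 (middle) and Kitlg against Cpa3 (right) in 20 rats, coloured by group. With group means removed, r over all 20 rats is 0.85, 0.94 and 0.85, but among the 5 rats at 8 weeks Kitlg and Cpa3 have r of only 0.09, and the lowest Cpa3 and Kitlg values belong to 4-week replicate 2.

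Other genes of the granule and of mast cell signalling were taken from lists chosen by function. Of 13 measured granule genes, 3 passed as higher at 1 week, 0 as lower, and 0 passed at 4 or 8 weeks, beside 21.3%, 13% and 11.6% of all probe sets at the 3 times. Mcpt9 was 7.18, 7.03, 6.23, 7.08 and 5.32 in the controls and 7.56, 6.87, 7.58, 8.92 and 7.74 at 1 week. Here 4 of 5 animals lay above the highest control, and the difference was 1.17 (SE 0.36, adjusted p = 0.0244 by limma). The call was lost without control replicate 5 or 1-week replicate 4, and the values over single left-out arrays ran from 0.86 to 1.38. It was also lost with array weights (0.77, adjusted p = 0.0544). Ctsg, the granule protease cathepsin G, was 0.47 higher (adjusted p = 0.0363) and Ndst2, the enzyme that sulfates heparin, 0.36 higher (adjusted p = 0.0413 by limma). With group means removed, Ctsg had r of -0.56 with Mcpt1 and -0.46 with Cpa3. Of the genes that did not pass, Mcpt8 was 0.16 above control at 1 week and 0.99 below it at 4 weeks (adjusted p = 0.091 by limma). Over the 10 fits that left out 1 array, the call held in 4 of 10 for Ctsg at 1 week (0.40 to 0.57) and 3 of 10 for Ndst2 at 1 week (0.27 to 0.42).

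Of 16 genes that partner or signal beneath the IgE receptor, 1 passed as higher at 1 week, 1 at 4 weeks and 2 at 8 weeks, and none as lower, beside the same shares of 21.3%, 13% and 11.6% over all probe sets. Lat, an adaptor of the receptor that T cells also use, was 0.75 higher at 1 week and 0.86 at 4 weeks. Prkcb (1.10) and Plcg1 (0.43), kinase and phospholipase of many leukocytes, passed at 8 weeks. Fcer1g, the gamma chain shared with other Fc receptors, was -0.24 from control at 1 week and did not pass. The medians of this list were -0.04, 0.31 and 0.49 at 1, 4 and 8 weeks, and the 4 leukocyte markers were 6.17 to 7.66 in controls, 6.39 to 7.44 at 1 week, 7.14 to 8.78 at 4 weeks and 6.30 to 8.43 at 8 weeks. The part of these other leukocytes was not tested. Over the 10 fits that left out 1 array, the call held in 7 of 10 for Lat at 1 week (0.54 to 0.87), 9 of 10 for Lat at 4 weeks (0.65 to 0.98), 5 of 10 for Prkcb at 8 weeks (0.79 to 1.32) and 1 of 10 for Plcg1 at 8 weeks (0.33 to 0.48).

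Among 14 measured genes of Kit signalling and mast cell transcription factors, 2 passed as higher at 1 week, 1 at 4 weeks and 2 at 8 weeks, against 21.3%, 13% and 11.6% of the array. Tal1, a factor of mast cell, blood and vessel lineages, was 0.75, 0.49 and 0.48 higher, with all 5 injured animals above all controls at each time. So were 8.21%, 6.04% and 5.93% of all probe sets. When the fit held only the 2 groups compared, Tal1 did not pass at 4 or 8 weeks (adjusted p = 0.0542 and 0.0583 by limma). Lyl1, a relative of Tal1, was 0.62 higher at 8 weeks. Gata1 passed at 1 week (0.55), but it lay below the background mean on all 20 arrays. Mitf, which drives mast cell and melanocyte genes, was -0.21, 0.02 and -0.13 from control and did not pass. Over the 10 fits that left out 1 array, the call held in 10 of 10 for Tal1 at 1 week (0.68 to 0.80), 8 of 10 for Tal1 at 4 weeks (0.43 to 0.54), 7 of 10 for Tal1 at 8 weeks (0.39 to 0.55), 5 of 10 for Lyl1 at 8 weeks (0.50 to 0.74) and 10 of 10 for Gata1 at 1 week (0.51 to 0.58).

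Of 16 measured genes of histamine and lipid mediators, Ltc4s, which makes leukotriene C4, was 0.75 higher at 1 week (SE 0.17, adjusted p = 0.00404 by limma). All 5 injured animals lay above all controls, as for 8.21% of all probe sets. Ptgs2, the inducible cyclooxygenase, fell by 1.59 at 1 week and by 1.31 at 4 weeks, with all injured animals of both times below all controls. The share of all probe sets that lay below all controls in this way is not given here. Of 21 surface receptors and type 2 cytokines, the 1-week test passed 3 as higher and 2 as lower, the 4-week test 1 and 1, and the 8-week test 0 and 2. Over all probe sets 21.3%, 13% and 11.6% passed. Enpp3, a nucleotide-cleaving enzyme known as a marker of activated basophils and mast cells and also made by epithelia, fell by 1.22, 1.07 and 1.14. Il33, an alarmin of epithelium and stroma named after its values were seen, fell by 1.13 at 1 week and by 1.32 at 8 weeks. Cd300a, an inhibitory receptor of many leukocytes, was 0.69 and 0.78 higher at 1 and 4 weeks. The type 2 cytokines Il13 (0.40) and Il5 (0.48) passed at 1 week, with Il5 below the background mean on all 20 arrays. Over the 10 fits that left out 1 array, the call held in 6 of 10 for Cd300a at 1 week (0.57 to 0.83), 9 of 10 for Cd300a at 4 weeks (0.62 to 0.92), 2 of 10 for Il33 at 1 week (-1.66 to -0.92), 3 of 10 for Il33 at 8 weeks (-1.85 to -1.14), 7 of 10 for Il13 at 1 week (0.33 to 0.46) and 9 of 10 for Il5 at 1 week (0.38 to 0.54). It held in all 10 for Ltc4s, Ptgs2 and Enpp3. Enpp3 at 4 weeks did not pass when the fit held only the 2 groups compared (adjusted p = 0.0598 by limma). With the hybridization value as a covariate no call of a gene in these lists held. Beside them, 0.691%, 0.173% and 0.146% of all probe sets passed with it at 1, 4 and 8 weeks. At 1 week Ltc4s was then 0.25 higher (adjusted p = 0.781) and Enpp3 fell by 0.82 (adjusted p = 0.528). Ptgs2 fell by 2.55 (adjusted p = 0.0596), and Il13 and Il33 were 0.00055 and -0.080 from control (adjusted p = 0.9997 and 0.976, all by limma).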

How the data were processed

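The authors deposited log2 RMA signals for 24871 probe sets of 20 arrays, made from biotin-labelled RNA of the vocal folds. The methods name TAC 4.0.1 with global scaling and the Clariom S array, while the labels name Clariom D, and Affymetrix Expression Console is given in the submitters' processing notes. RMA corrects background and combines probes within a probe set, so both steps are in the values, and no detection calls were made. Array number, not read depth, limits the precision.

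Groups came from the sample labels. The platform annotation gave 1 gene name to 15049 probe sets. One linear model of the 4 groups was fitted in R 4.3.3 by the functions lmFit and eBayes of limma 3.58.1. The Benjamini-Hochberg procedure ran over all named probe sets of a comparison, with a threshold of 0.05. The test was checked on simulated data. The labels give separate animals, so each test rests on the variation among animals. Median array signals ran from 4.58 to 4.94, and no 2 arrays were identical.

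The members and all lists were chosen with earlier results of these data known. All members were described, from each pathway list up to 4 genes that passed, by lowest adjusted p, as well as the 5 most like Cpa3 among probe sets brighter than the median. Alternatives were other scalings, weights, filters, priors, a fold threshold, a replicate block, fits of only the 2 groups compared and left-out arrays. A covariate of hybridization controls, subtraction of the background mean and leaving out the 2 arrays of lowest median were added after seeing the data. Figures were drawn in matplotlib.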

Additional observations from a re-analysis of the deposited data

Results flagged for a closer look

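Of 40 sets of 5 animals, 1 for each member and group, 1 held an animal far from the others. Tpsb2, a tryptase, was 4.99 in 8-week replicate 3, and the nearest animal of that group was 5.47. The gap made up 0.817 of the range of the group, above the critical value of 0.71. Chance gives such a value in about 1 in 20 groups.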

How the results depend on the processing

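The count of members called was 1 at 1 week, 1 at 4 weeks and 0 at 8 weeks. At 1 week it was 2 with median centring and with the replicate block (Hdc joined, adjusted p = 0.0425 and 0.0462 by limma), 2 with array weights and 0 with the hybridization covariate. At 4 weeks it was 0 with quantile normalization, with a log2 fold change of at least 1, with the hybridization covariate and without the 2 arrays of lowest median, and 2 with array weights. At 8 weeks it was 1 with array weights. Among the 4 groups it was 2 with array weights and 0 with the hybridization covariate. With the background mean subtracted the counts were 5 (1 higher, 4 lower), 5 lower and 4 lower at 1, 4 and 8 weeks, and 4 among the 4 groups, but that step also moved the median of all probe sets to -0.66, -0.55 and -0.52, and 75.1%, 65.7% and 61.9% of them passed. The hybridization covariate moved this median to -0.15, -0.11 and -0.11, and 0.691%, 0.173% and 0.146% of all probe sets passed with it. Leaving out single arrays gave counts of 1 to 2 at 1 week, 0 to 3 at 4 weeks, 0 to 1 at 8 weeks. Cma1 at 1 week stayed higher in every alternative tried and passed in all but the hybridization covariate. Its call at 4 weeks was lost without control replicates 3 or 4 or without 4-week replicates 1, 2 or 3 (0.65 to 0.81 over all left-out arrays), and it passed at 8 weeks without 8-week replicate 5 (0.72). Hdc passed at 1 week without 1-week replicate 3 (0.60), and Ms4a2 (-0.94) and Kit (-0.59) at 4 weeks without control replicate 5. The cause of these shifts was not tested. Same-numbered arrays of different groups did not deviate together (mean r -0.02), so the replicate block rests on numbers that do not pair the animals.

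The other reversals were of genes that had mostly not passed. With quantile normalization, the sign turned for Kit (0.065) at 1 week, and for Fcer1a (-0.041) at 8 weeks. With median centring, the sign turned for Mcpt1 (-0.028), Fcer1a (-0.0049) at 8 weeks. With array weights, the sign turned for Cpa3 (-0.16), Gata2 (-0.19) at 1 week, and for Mcpt1 (-0.38), Fcer1a (-0.21) at 8 weeks. With the hybridization covariate, the sign turned for Tpsab1 (-0.55), Tpsb2 (-0.25), Kit (0.16), Ms4a2 (0.18), Hdc (-0.061), Gata2 (-0.36), Cd300a (-0.0081) at 1 week, and for Mcpt1 (0.62), Tpsb2 (-0.31), Fcer1a (0.81), Hdc (-0.073) at 4 weeks, and for Tpsab1 (-0.43), Tpsb2 (-0.31), Hdc (-0.29) at 8 weeks. Without the 2 arrays of lowest median, the sign turned for Cpa3 (-0.056), Gata2 (-0.11) at 1 week, and for Mcpt1 (-0.12), Fcer1a (-4.4e-05) at 8 weeks. With the background mean subtracted, the sign turned for Cpa3 (-0.53), Tpsab1 (-0.47), Tpsb2 (-0.25), Fcer1a (-0.27), Hdc (-0.20), Gata2 (-0.69), Ctsg (-0.22), Ndst2 (-0.33), Gata1 (-0.14), Il5 (-0.21), Il13 (-0.29) at 1 week, and for Tpsb2 (-0.27), Hdc (-0.17), Tal1 (-0.11) at 4 weeks, and for Mcpt1 (-0.55), Tpsab1 (-0.32), Tpsb2 (-0.27), Fcer1a (-0.53), Hdc (-0.38), Plcg1 (-0.14), Tal1 (-0.081) at 8 weeks. When single arrays were left out, the sign turned for Cpa3 at 1 week (-0.073 to 0.44), Fcer1a at 4 weeks (-0.38 to 0.083), Fcer1a at 8 weeks (-0.21 to 0.23), Gata2 at 1 week (-0.11 to 0.095), Gata2 at 4 weeks (-0.18 to 0.016), Kit at 1 week (-0.24 to 0.16), Mcpt1 at 4 weeks (-0.54 to 0.11), Mcpt1 at 8 weeks (-0.40 to 0.22) and Tpsab1 at 4 weeks (-0.28 to 0.023). Of the 24 pathway gene calls against control, 0 passed with the hybridization covariate, beside 0.691%, 0.173% and 0.146% of all probe sets at 1, 4 and 8 weeks. When the fit held only the 2 groups compared, calls were lost for Ctsg, Ndst2, Il33 and Il13 at 1 week. The same fits lost those of Tal1, Cd300a and Enpp3 at 4 weeks, and of Plcg1, Prkcb, Tal1 and Il33 at 8 weeks. Low signal limits Cma1, Tpsab1, Ms4a2, Fcer1a and Hdc, which never exceeded the brightest background probe set, and Ctsg, Lat, Gata1, Il5 and Prg3, which lay near or below the background mean. Kit and Gata2 exceeded the brightest background probe set on 4 of 5 control arrays and Tpsb2 on 1 of 5. None of these genes did so on any injured array. Cpa3 did so on 4, 3, 3 and 1 of 5 arrays from control to 8 weeks.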
